A study of Aspergillus nidulans with 6 samples.

Results

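The genes described here encode proteins that build, anchor to or digest polysaccharides. They were taken from a table of 1375 genes deposited for a comparison of the celA deletion strain of Aspergillus nidulans (celAΔ) with its parent, the control strain SAA.111. A gene was included when its annotation in that table held a word for a polysaccharide, its hydrolase or the cell wall (for example chitin, glucan, cell wall, cellulose, xylan, arabin, pectate, amylase, glycosyl or muramidase), and transporters and transcription factors were left out. The rule found 33 of the 1375 genes, of which 8 belonged to the fungal wall, 20 acted on plant polymers and 5 were of neither kind. Those 5 were the deleted locus itself, a glycoprotein-trimming glucosidase, an enzyme that cleaves bacterial walls and 2 glycosyl hydrolases whose annotation gave no substrate.

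RNA was sequenced from the mycelium of 3 celAΔ cultures and 3 control cultures grown for 3 days at 37 °C in liquid minimal medium with 0.4% (w/v) glucose and 10 mM ammonium tartrate; the study's results text names a later time point than its methods. Both strains carried veA1, biA1, ΔargB::trpC, riboB2, pyroA4 and wA3. In celAΔ the celA locus, ANIA_08444, was replaced by the argB marker, so the strains also differed in arginine prototrophy, and no library carried the marker without the deletion. A single transformant gave stable growth, and the celAΔ cultures were therefore not independent mutants.

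The hyphal wall of Aspergillus is a layered network of chitin, β-glucans, α-glucan and galactomannan in which glycoproteins are embedded, many of them carried to the surface on a glycosylphosphatidylinositol (GPI) anchor. The wall is remodelled continuously by glucanases and transglycosidases. The same fungus feeds on dead plant material by secreting a second set of hydrolases against cellulose, xylan, pectin and starch. These genes are generally kept low by carbon catabolite repression when glucose is at hand, and are switched on by pathway regulators such as AmyR, the activator of starch-degrading enzymes.

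Values are RPKM, reads scaled by gene length and by the library's mapped total, and are given for replicates 1, 2 and 3 of a strain in that order. Log2 fold changes (log2 FC, celAΔ over control) came from edgeR fitted on the reads of all listed genes. A gene passed the test at a Benjamini-Hochberg adjusted p below 0.05 over those genes with an absolute log2 FC above 1. The table held only genes that the authors had selected on the same libraries for a difference of at least 2-fold, so that passing the test and the direction of change were no independent evidence for any gene in it, and genes outside it were not analysed here. For the same reason p-values were also adjusted over the assembly's 10516 loci, every unlisted locus being counted as not significant. In a bulk culture, fewer cells that express a gene and less RNA per cell cannot be told apart.

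Mapped reads numbered 4176645 to 5205011 in the celAΔ libraries and 3300251 to 3706233 in the control libraries. Control replicate 3 stood apart: its reads over the listed genes differed from those of the other control libraries by a chi-square of 140 to 146 per degree of freedom, against 3.89 between control replicates 1 and 2, and celAΔ replicate 1 differed from the other celAΔ libraries by 55.0 to 61.5, against 5.57 between those. In 1024 of the 1375 listed genes (74.5%), control replicate 3 was the control library nearest to celAΔ. Markers of conidia and conidiation were sought by annotation words and 9 gene symbols, of which flbD alone was paired with a listed gene. The 4 genes found had a summed level of 1623, 2517 and 3389 RPKM in celAΔ, against 41.0, 40.7 and 1247 RPKM in the control. One of them, ANIA_10628, was at 0 in control replicate 2, and 1 of the 4, ANIA_05086, passed the test, against all 4 without control replicate 3. The list was not complete: fluG, a conidiation gene outside it, was lower in celAΔ (log2 FC -1.71) and passed the test. Control replicate 3 was not the control library nearest to celAΔ for fluG. The gene tmpA, also outside the list, was higher (log2 FC 1.75). Values without control replicate 3 are given below where they change a call, and the part of conidiation in the results was not tested.

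Of the 33 genes, 28 had lower and 5 had higher mean levels in celAΔ. The test was passed by 32, 28 of them lower and 4 higher, where 93.6% of all listed genes passed, 52.5% lower and 41.1% higher. The libraries of the strains did not overlap in any of the 33, celAΔ lying below the control in 28 and above it in 5, where 99.3% of the listed genes were separated, 52.7% with celAΔ below and 46.5% with celAΔ above. The median log2 FC was -2.14, or -1.89 with the gene that had no read in celAΔ set at its bound, beside -1.04 over all listed genes. Adjusted over all loci, 18 of the 33 passed, 17 lower and 1 higher, where 38.1% of the listed genes passed, 25.6% lower and 12.5% higher.

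Together the 33 genes held 0.135, 0.116 and 0.120% of the mapped reads in the celAΔ libraries, against 0.522, 0.557 and 0.310% in the control libraries. Every celAΔ library was below every control library, and control replicate 3 lay between celAΔ and the other control libraries. The mean share was 0.124 ± 0.0103% in celAΔ and 0.463 ± 0.134% in the control (SD, n = 3 each), 3.75-fold higher in the control (two-sided exact permutation test, p = 0.1, the smallest that 3 against 3 allows). The genes had been selected for a difference between these same libraries, so the separation and this p are no independent evidence. A single gene, ANIA_02928, made up 0.00282% of the mapped reads in celAΔ and 0.178% in the control strain. Without it the share was 0.121 ± 0.00934% in celAΔ and 0.285 ± 0.0495% in the control.

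**Figure D1:**
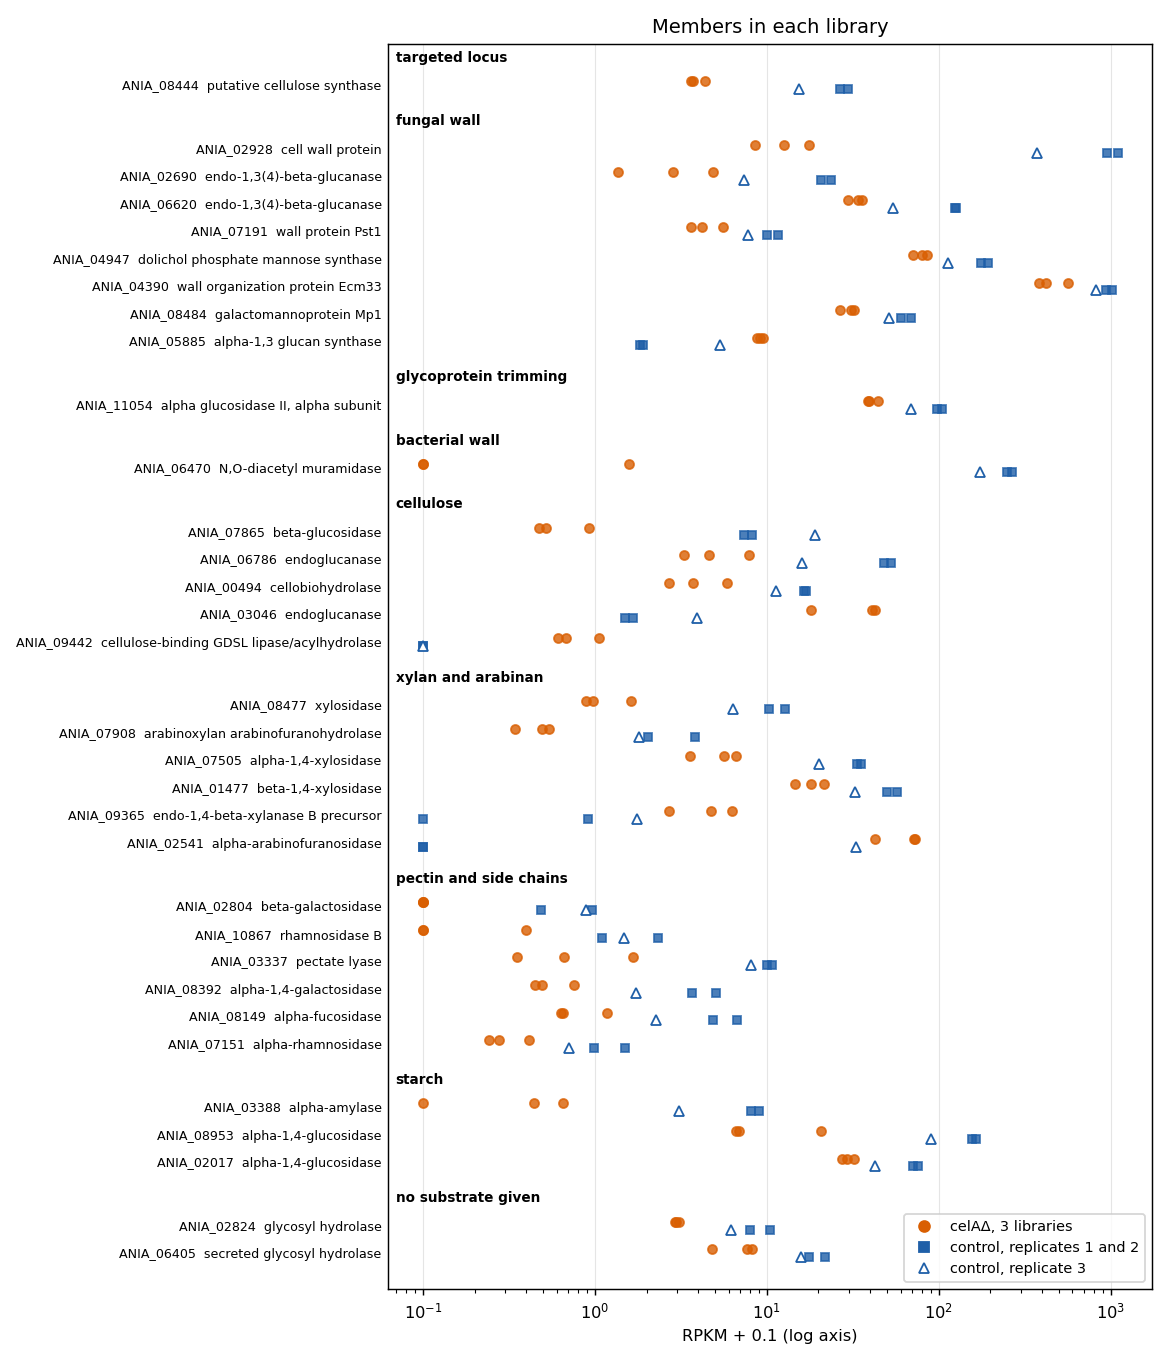
Level of each of the 33 genes in each library, as RPKM + 0.1 on a logarithmic axis, with 1 row per gene grouped by role; circles are celAΔ libraries, squares control replicates 1 and 2 and triangles control replicate 3. In 28 rows the celAΔ points lie left of the control points and in 5 they lie right of them, and the widest gaps are those of ANIA_06470 and ANIA_02928.

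The deleted locus was checked first. ANIA_08444 is annotated as a putative cellulose synthase. The study instead describes its product as a putative mixed-linkage glucan synthase, and leaves its actual role in wall synthesis to be shown. The gene had 3.54, 3.64 and 4.29 RPKM in celAΔ, against 26.6, 29.7 and 15.3 RPKM in the control. These were 33, 38 and 36 reads in celAΔ, against 198, 197 and 111 reads in the control. The gene was lower in every celAΔ library than in any control library, as the labels require. Reads of the deleted gene were nevertheless present in every celAΔ library. The study checked the deletion by Southern blot and PCR, and names residual heterokaryons as the probable source of such reads. The origin of the reads was not tested here. The log2 FC of ANIA_08444 was -2.64 (SE 0.35, edgeR, adjusted p = 0.00156).

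The fungal wall genes were mostly lower in celAΔ, and 1 of them stood far from the rest. All 8 passed the test, 7 lower and 1 higher, where 93.6% of all listed genes passed, 52.5% lower and 41.1% higher. Their median log2 FC was -1.09 beside -1.04 over all listed genes. Adjusted over all loci, ANIA_02928 alone of the 8 passed, where 38.1% of the listed genes passed. Summed, these genes took 0.0784 ± 0.0127% of the mapped reads in celAΔ and 0.326 ± 0.104% in the control (SD, n = 3 each), and ANIA_02928 had the highest mean share of the 8 in the control, at 0.178% beside 0.110% for ANIA_04390.

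ANIA_02928, annotated only as a putative cell wall protein, had 17.5, 8.5 and 12.6 RPKM in celAΔ, against 959, 1099 and 373 RPKM in the control. It ranked 33 among the 1375 listed genes by its mean level in the control. Its mean was 12.9 ± 4.51 RPKM in celAΔ and 810 ± 385 RPKM in the control, 63.1-fold higher in the control (log2 FC -5.98, SE 0.62, edgeR, adjusted p = 0.0012). The lowest control library, replicate 3, was still well above the highest celAΔ library, and the log2 FC lay between -6.32 and -5.69 whichever library was left out.

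Genes for 2 putative endo-1,3(4)-beta-glucanases, enzymes that cut β-glucan chains internally, were both lower in celAΔ. ANIA_02690 had 4.77, 1.26 and 2.75 RPKM in celAΔ, against 23.4, 20.6 and 7.27 RPKM in the control (log2 FC -2.55, SE 0.61, edgeR, adjusted p = 0.00787). ANIA_06620 was the more abundant, with 34.0, 35.9 and 29.5 RPKM in celAΔ, against 125, 126 and 54.2 RPKM in the control (log2 FC -1.61, SE 0.39, edgeR, adjusted p = 0.00848). In both, control replicate 3 was at less than 50% of the mean of the other control libraries, at 33% for ANIA_02690 and 43.2% for ANIA_06620.

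The mannoprotein and GPI protein genes differed by little more than the 2-fold that the table required. ANIA_04390 encodes Ecm33, a GPI-anchored protein needed for normal wall organization in yeasts, and was the most abundant of the 33 genes in celAΔ with 565, 381 and 420 RPKM, against 943, 1013 and 825 RPKM in the control (log2 FC -1.03, SE 0.34, edgeR, adjusted p = 0.0217). ANIA_08484, for the galactomannoprotein Mp1, had 26.4, 30.7 and 32.2 RPKM in celAΔ, against 69.3, 60.1 and 51.4 RPKM in the control (log2 FC -1.02, SE 0.28). ANIA_07191, for the GPI-anchored wall protein Pst1, was at 4.11, 5.49 and 3.51 RPKM in celAΔ, against 9.88, 11.5 and 7.72 RPKM in the control (log2 FC -1.14, SE 0.32). ANIA_04947 resembles dolichol phosphate mannose synthase, which makes the mannose donor for glycoproteins and GPI anchors. Its levels were 79.8, 70.8 and 85.0 RPKM in celAΔ, against 193, 177 and 114 RPKM in the control (log2 FC -1.04, SE 0.32). The strains did not overlap in any of these 4 genes, but each fell short of the threshold when a particular library was left out: ANIA_04390 and ANIA_04947 without celAΔ replicate 2 or 3 or control replicate 1 or 2, ANIA_08484 without celAΔ replicate 1 or control replicate 1, and ANIA_07191 without celAΔ replicate 3. The log2 FC nearest to 0 in these fits was -0.91 for ANIA_04390, -0.89 for ANIA_04947 and -0.90 for ANIA_08484, and the adjusted p of ANIA_07191 rose to 0.051.

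The one fungal wall gene that rose was ANIA_05885, an alpha-1,3 glucan synthase, the type of enzyme that makes the α-glucan of the wall. Its levels were 9.39, 8.66 and 8.99 RPKM in celAΔ, against 1.73, 1.82 and 5.22 RPKM in the control, with control replicate 3 between the celAΔ libraries and the other control libraries. The means were 9.01 ± 0.364 RPKM in celAΔ and 2.93 ± 1.99 RPKM in the control (log2 FC 1.62, SE 0.47, edgeR, adjusted p = 0.0146). Without control replicate 3 the log2 FC was 2.34, and adjusted over all loci with all 6 libraries the p was 0.112. In A. nidulans α-1,3-glucan accumulates in the vegetative mycelium and is used as a reserve during development. Whether ANIA_05885 makes that glucan was not tested.

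How far the fungal wall group was separated from the control depended on the scaling of the libraries. Taking the median listed gene as the scale in place of the mapped totals shifted the log2 FC of all listed genes up by a median of 0.67, and 3 of the 8 fungal wall genes then passed, 2 lower (ANIA_02928 and ANIA_02690) and 1 higher (ANIA_05885). No fungal wall gene changed direction. The calls over all listed genes were split into 596 higher and 341 lower under that scaling, against 565 higher and 722 lower with the mapped totals.

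**Figure D2:**
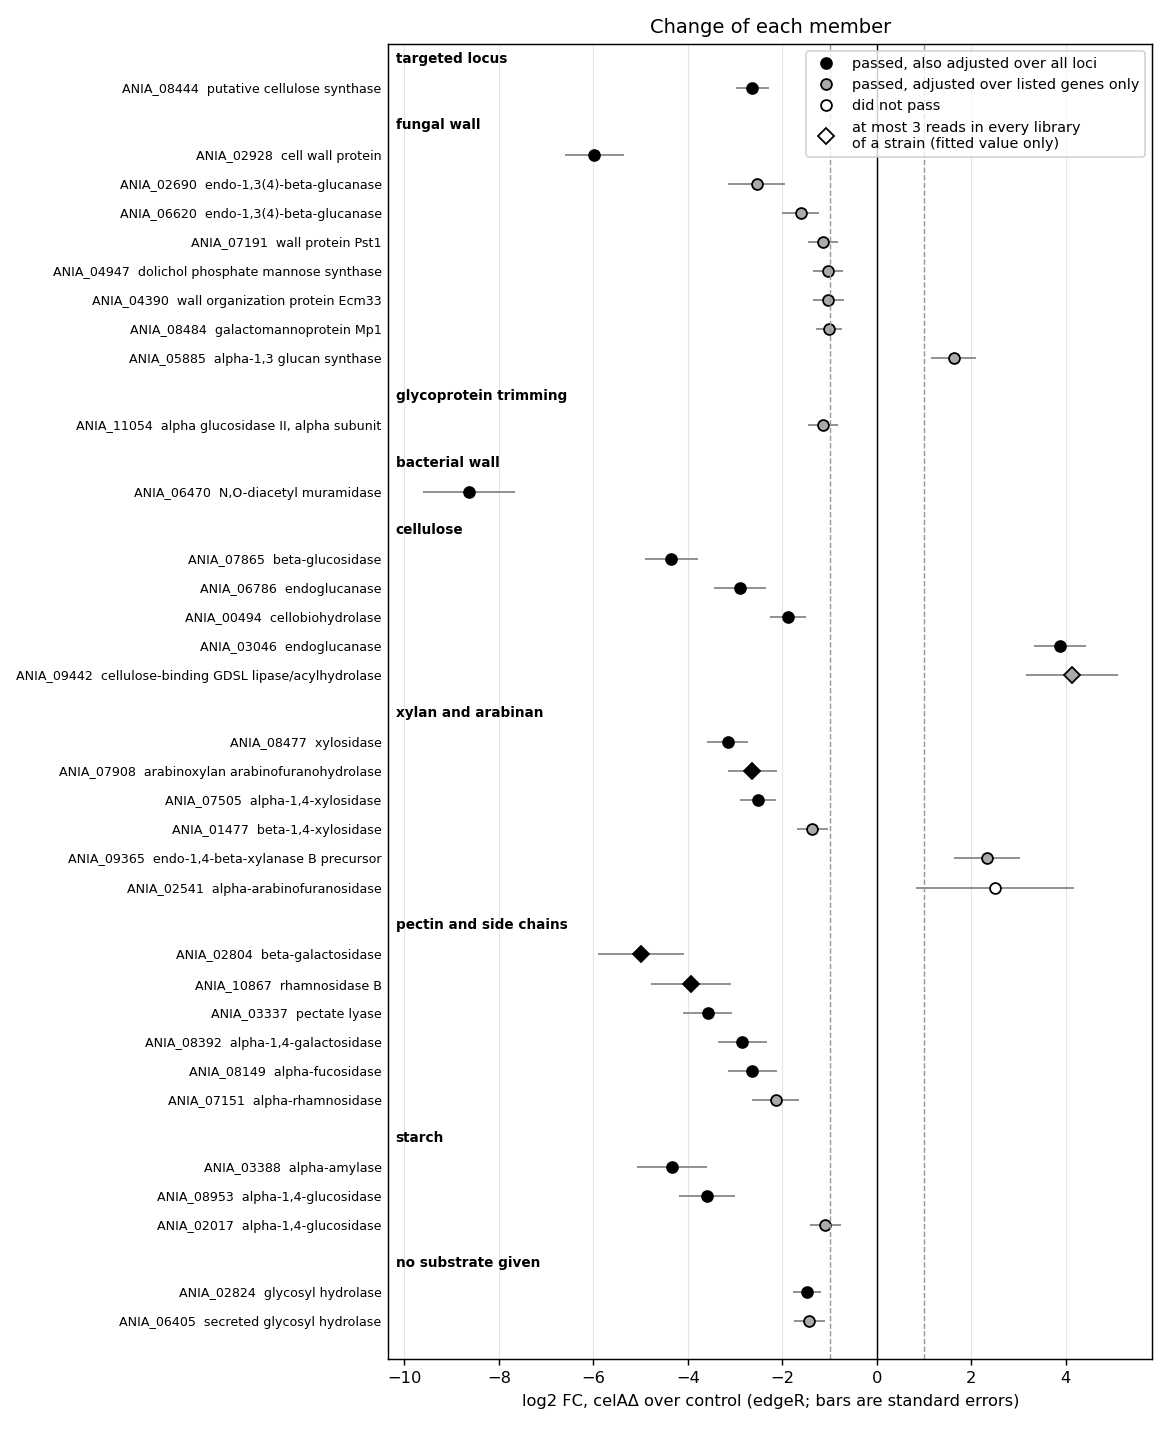
Log2 FC of each of the 33 genes, celAΔ over control, with standard errors as bars and genes grouped by role. The fill shows whether the gene passed the test with adjustment over all loci (black), over the listed genes only (grey) or not (white), dashed lines mark a log2 FC of -1 and 1, diamonds mark genes with no library above 3 reads in celAΔ or in the control, and apart from these diamonds, whose fitted values depend on very few reads, the values run from -8.64 for ANIA_06470 to 3.87 for ANIA_03046.

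Close to the wall genes in function stood ANIA_11054, the alpha subunit of glucosidase II, which trims glucose from new N-glycans in the endoplasmic reticulum. It had 39.4, 44.6 and 38.5 RPKM in celAΔ, against 105, 98.2 and 68.7 RPKM in the control, with no overlap (log2 FC -1.15, SE 0.32, edgeR, adjusted p = 0.0123). Without celAΔ replicate 3 the adjusted p rose to 0.0519.

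The widest difference among the 33 genes was that of ANIA_06470, a putative N,O-diacetyl muramidase, a lysozyme-type enzyme that cleaves the peptidoglycan of bacteria. It had 0, 1.48 and 0 RPKM in celAΔ, against 268, 250 and 174 RPKM in the control. In reads this was 5 in all of celAΔ, every one in replicate 2, against 1591 in the control, so that the gene was abundant in each control library and all but missing from celAΔ. The ratio of pooled levels was 420-fold higher in the control, with a 95% exact interval of 180 to 1296 for counting error only. The fitted log2 FC was -8.64 (SE 0.97, edgeR, adjusted p = 0.0013), the 8th lowest of the 1375 listed genes, and it passed the test whichever library was left out.

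The remaining glycosyl hydrolases without a named substrate were both lower in celAΔ. ANIA_02824 had 3.00, 2.87 and 2.83 RPKM in celAΔ, against 10.3, 7.95 and 6.11 RPKM in the control (log2 FC -1.49, SE 0.30). ANIA_06405, which is annotated as secreted, had 7.59, 4.69 and 8.11 RPKM in celAΔ, against 17.5, 21.8 and 15.8 RPKM in the control (log2 FC -1.43, SE 0.33). The strains did not overlap in either gene.

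Genes for enzymes of plant polymers were mostly lower in celAΔ too. Of the 20, 16 were lower and 4 higher, and 19 (95%) passed the test, 16 lower and 3 higher. Over all listed genes 93.6% passed, 52.5% lower and 41.1% higher, so the share that passed was near that of the table. The median log2 FC was -2.64, beside -1.04 over all listed genes. With adjustment over all loci 14 passed, 13 lower and 1 higher, where 38.1% of the listed genes passed, 25.6% lower and 12.5% higher. With the median listed gene as the scale 17 of the 20 still passed, 14 lower and 3 higher. Under that scaling 68.1% of all listed genes passed, 341 lower and 596 higher. Most of these genes were weakly expressed: all 20 together held 0.0311 ± 0.00193% of the mapped reads in celAΔ and 0.0870 ± 0.0192% in the control (SD, n = 3 each).

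The cellulose genes went both ways, with 3 of 5 lower and 2 higher. ANIA_07865, a β-glucosidase, a type of enzyme that releases glucose from cellobiose, had 0.422, 0.828 and 0.375 RPKM in celAΔ, against 8.14, 7.24 and 19.0 RPKM in the control (log2 FC -4.35, SE 0.56, edgeR, adjusted p = 0.00147). Here control replicate 3 was the highest library, so that it lay farther from celAΔ than the other controls. ANIA_06786, a putative endoglucanase, which cuts within the cellulose chain, had 3.19, 7.75 and 4.51 RPKM in celAΔ, against 48.2, 52.5 and 16.0 RPKM in the control (log2 FC -2.90, SE 0.56). ANIA_00494, a cellobiohydrolase that works from the reducing end of the chain, had 2.59, 3.65 and 5.75 RPKM in celAΔ, against 16.7, 16.5 and 11.2 RPKM in the control (log2 FC -1.89, SE 0.38). All 3 passed the test with each library left out.

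A different putative endoglucanase, ANIA_03046, moved the opposite way. It had 18.0, 42.5 and 41.0 RPKM in celAΔ, against 1.56, 1.40 and 3.85 RPKM in the control, and its means were 33.8 ± 13.7 RPKM in celAΔ and 2.27 ± 1.37 RPKM in the control (log2 FC 3.87, SE 0.55, edgeR, adjusted p = 0.00176). It was the one gene higher in celAΔ that passed with adjustment over all loci (edgeR, adjusted p = 0.0135). The lowest celAΔ library, replicate 1, was above the highest control library, replicate 3. ANIA_09442, a putative GDSL lipase with a cellulose-binding domain, had 2, 2 and 3 reads in celAΔ and 0 in each control library. With at most 3 reads in any library no fold is given for it, although its fitted values passed the test.

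Genes for xylan and arabinan enzymes gave nearly the same summed share of reads in both strains, 0.0145 ± 0.00320% in celAΔ and 0.0164 ± 0.000830% in the control (two-sided exact permutation test, p = 0.5). Within that sum the genes diverged, and rises and falls offset each other. ANIA_02541, which was higher in celAΔ, held most of the group's reads in each celAΔ library. The genes had been selected for a difference between these libraries, so this p is no evidence that the group was unchanged. Lower in celAΔ were 4 of the 6: ANIA_07505, an alpha-1,4-xylosidase, had 3.50, 6.56 and 5.52 RPKM in celAΔ, against 35.5, 33.5 and 20.0 RPKM in the control (log2 FC -2.51, SE 0.38). ANIA_01477, a beta-1,4-xylosidase, which frees xylose from short xylan fragments, had 17.9, 21.5 and 14.6 RPKM in celAΔ, against 50.0, 56.9 and 32.6 RPKM in the control (log2 FC -1.37, SE 0.33). ANIA_08477, annotated as xylosidase, had 0.788, 1.52 and 0.875 RPKM in celAΔ, against 10.2, 12.7 and 6.25 RPKM in the control (log2 FC -3.15, SE 0.43). In each of these 3 the control libraries were above the celAΔ libraries and replicate 3 was the lowest control. ANIA_07908, an arabinoxylan arabinofuranohydrolase, which removes arabinose side groups from xylan, had 2, 2 and 1 reads in celAΔ, against 7, 12 and 6 reads in the control, a pooled ratio 6.61-fold higher in the control (95% exact interval 2.48 to 22.1).

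The other 2 genes of this group were higher in celAΔ. ANIA_09365, the precursor of endo-1,4-beta-xylanase B, had 6.15, 2.60 and 4.67 RPKM in celAΔ, against 0.810, 0 and 1.67 RPKM in the control (log2 FC 2.33, SE 0.71, edgeR, adjusted p = 0.0166). Its reads numbered 41 in celAΔ and 6 in the control, 5.17-fold higher in celAΔ on pooled levels (95% exact interval 2.18 to 14.9), and without celAΔ replicate 1 the adjusted p rose to 0.0529. ANIA_02541, an alpha-arabinofuranosidase, had 42.7, 71.3 and 73.0 RPKM in celAΔ, against 0, 0 and 33 RPKM in the control. In reads these were 336, 630 and 518 in celAΔ, against 0, 0 and 202 in the control, so that control replicate 3 was close to celAΔ replicate 1 while the other control libraries had none. It was the 1 gene of the 33 that did not pass (log2 FC 2.50, SE 1.67, edgeR, adjusted p = 0.178), and it passed when control replicate 3 was left out (adjusted p = 6.6e-06), which left a control with no read and hence no fold to report. The conidiation markers had the same order, low in control replicates 1 and 2 and higher in control replicate 3.

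All 6 genes grouped as pectin and side-chain enzymes were lower in celAΔ (median log2 FC -3.21), but all were rare in both strains. Only the annotation of ANIA_03337 points to pectin. The others were placed here by the sugar they release, and their annotations name no polymer. ANIA_03337, a pectate lyase, which cleaves the galacturonan backbone, had 0.564, 0.251 and 1.56 RPKM in celAΔ, against 10.6, 9.90 and 7.97 RPKM in the control. In reads this was 8 in celAΔ and 77 in the control, 12.7-fold higher in the control on pooled levels (95% exact interval 6.14 to 30.5). ANIA_10867 and ANIA_07151 are rhamnosidases, which take rhamnose off side chains. ANIA_10867 had 3 reads in celAΔ and 40 in the control, 17.6-fold higher in the control (5.61 to 89.0), and ANIA_07151 had 8 reads in celAΔ and 28 in the control, 4.62-fold higher in the control (2.05 to 11.7). ANIA_02804, a putative β-galactosidase, had no read in any celAΔ library, against 2, 4 and 4 reads in the control. Set against 3 reads in each celAΔ library, the limit that a count of 0 in a library allows, it was at least 1.47-fold lower in celAΔ.

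The remaining 2 side-chain genes followed the same pattern at slightly higher counts. ANIA_08392, an alpha-1,4-galactosidase, had 0.392, 0.349 and 0.653 RPKM in celAΔ, against 3.56, 4.96 and 1.64 RPKM in the control (log2 FC -2.85, SE 0.53). ANIA_08149, an alpha-fucosidase, had 0.532, 0.553 and 1.08 RPKM in celAΔ, against 4.77, 6.61 and 2.17 RPKM in the control (log2 FC -2.64, SE 0.52). In both, control replicate 3 was at 38.5% and 38.1% of the mean of the other control libraries, and above every celAΔ library.

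The 3 starch genes were all lower in celAΔ and were the most abundant plant-polymer group in the control, with 0.0121 ± 0.00294% of the mapped reads in celAΔ and 0.0589 ± 0.0173% in the control (SD, n = 3 each). ANIA_08953, an alpha-1,4-glucosidase, an enzyme that releases glucose from starch fragments, had 20.6, 6.56 and 6.76 RPKM in celAΔ, against 164, 157 and 90.3 RPKM in the control (log2 FC -3.60, SE 0.59, edgeR, adjusted p = 0.00261). The celAΔ libraries were themselves unequal, with replicate 1 above the other two libraries of the strain. ANIA_03388, an alpha-amylase, had 0, 0.553 and 0.345 RPKM in celAΔ, against 7.96, 8.94 and 2.99 RPKM in the control, or 6 reads in celAΔ and 97 in the control, 21.4-fold higher in the control on pooled levels (95% exact interval 9.46 to 59.6). ANIA_02017, also an alpha-1,4-glucosidase, had 32.1, 29.3 and 27.3 RPKM in celAΔ, against 70.6, 75.6 and 42.6 RPKM in the control (log2 FC -1.09, SE 0.33, edgeR, adjusted p = 0.017). Its log2 FC moved to as little as -0.94 when a library was left out, and it fell short of the threshold without celAΔ replicate 2 or 3 or control replicate 1 or 2.

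**Figure D3:**
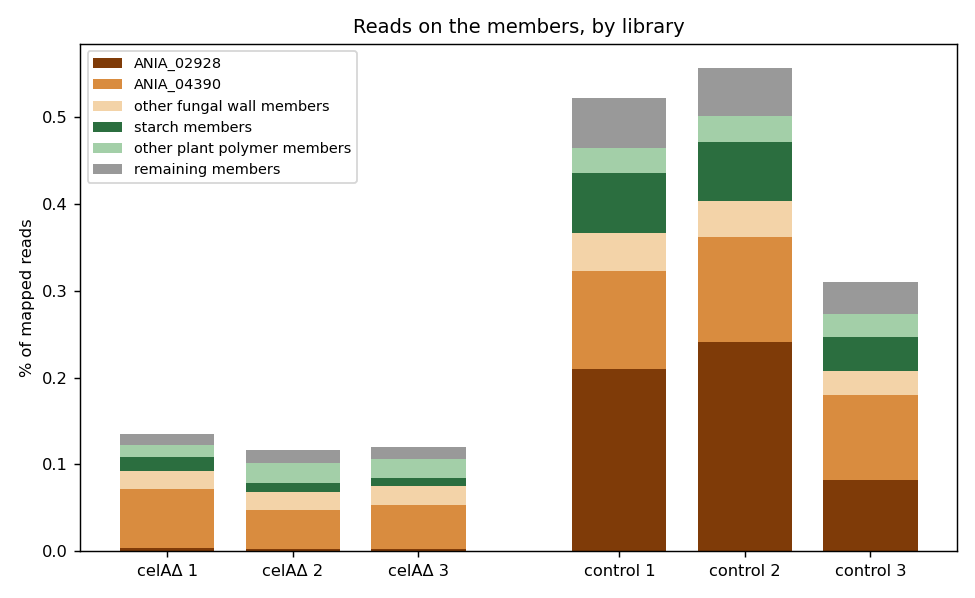
Share of mapped reads held by the 33 genes in each library, in percent, stacked as ANIA_02928, ANIA_04390, the other fungal wall genes, the starch genes, the other plant polymer genes and the remaining genes, with celAΔ libraries left of control libraries. The fungal wall genes hold the most in every library, from 0.0682 to 0.0927% in celAΔ and from 0.208 to 0.404% in the control.

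The position of control replicate 3 ran through most of these results. It was the control library nearest to celAΔ in 29 of the 33 genes (87.9%), including all 8 fungal wall genes, beside 74.5% of all listed genes. In the genes lower in celAΔ, its level was at a median of 60.7% of the mean of the other control libraries, beside 65.3% over all listed genes lower in celAΔ. The exceptions were ANIA_07865, ANIA_02804, ANIA_10867 and ANIA_09442. With control replicate 3 left out all 33 genes passed and their median log2 FC was -2.39, where 1321 of the 1375 listed genes (96.1%) passed and the median was -1.09.

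**Figure D4:**
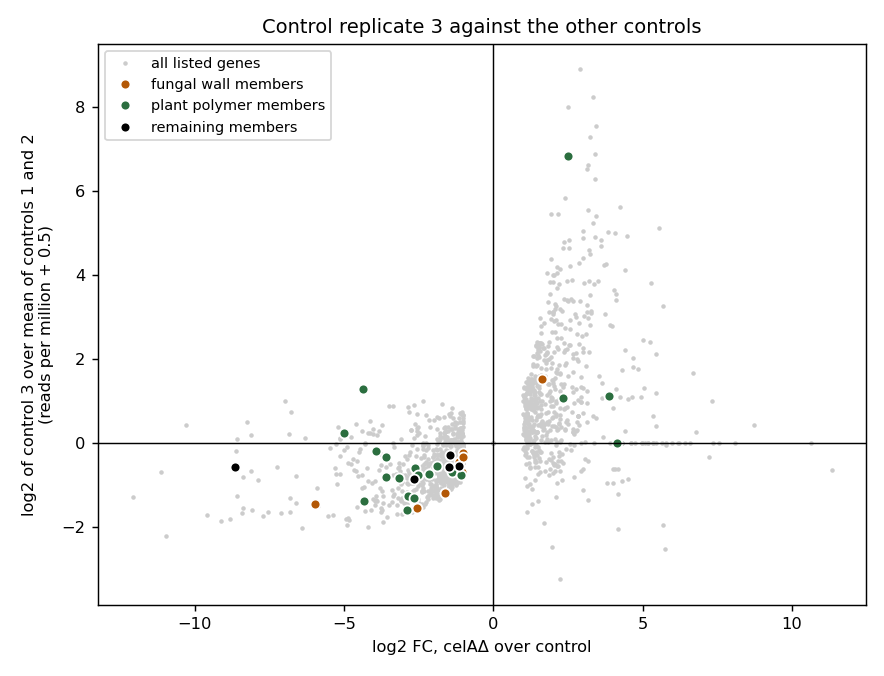
For each listed gene, the log2 ratio of control replicate 3 to the mean of control replicates 1 and 2 (vertical axis, in reads scaled by mapped totals, with a small constant added) against the log2 FC of celAΔ over control (horizontal axis), with the 33 genes in colour over all listed genes in grey. Both axes use control replicate 3, and the points of the genes lower in celAΔ lie mostly below 0 on the vertical axis.

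Annotations outside the rule name other steps of wall building and polymer use. A list of such genes (GPI-anchored proteins, transglycosidases, nucleotide sugar enzymes, maltase, esterases and AmyR) had 20 listed members, of which 19 passed the test, 16 lower and 3 higher, where 93.6% of all listed genes passed, 52.5% lower and 41.1% higher. Their median log2 FC was -1.50, beside -1.04 over all listed genes. With the median listed gene as the scale, and likewise with DESeq2, 8 of the 19 no longer passed. The lowest was ANIA_05267, a feruloyl esterase, which detaches ferulic acid from plant walls, with 5.04, 0.473 and 0.883 RPKM in celAΔ, against 102, 129 and 34.4 RPKM in the control (log2 FC -5.35, SE 0.91). Of the wall-related genes the GPI-anchored protein ANIA_04845 had 13.0, 10.4 and 9.78 RPKM in celAΔ, against 302, 271 and 134 RPKM in the control (log2 FC -4.41, SE 0.44). The remodelling enzymes ANIA_04515, of the GH16 transglycosidase family, and ANIA_01551, of the GH17 β-transglucosylase family, had log2 FCs of -2.04 (SE 0.35) and -1.92 (SE 0.42). Their roles are to cut and rejoin glucan chains in the wall.

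AmyR, ANIA_02016, the starch regulator, had 9.65, 10.4 and 12.5 RPKM in celAΔ, against 35.9, 40.2 and 20.1 RPKM in the control (log2 FC -1.56, SE 0.35, edgeR, adjusted p = 0.00649), and it stands next to the alpha-1,4-glucosidase ANIA_02017 in the assembly. It was 1 of the 8 that fell short of the threshold with the median listed gene as the scale and with DESeq2, at a log2 FC of -0.85 in both. The maltase MalT, ANIA_10420, had a log2 FC of -2.03 (SE 0.42). Higher in celAΔ were ANIA_02445, a GPI-anchored protein with a CFEM domain, with 56.5, 59.5 and 60.0 RPKM in celAΔ, against 8.67, 10.8 and 17.8 RPKM in the control, the endopolygalacturonase ANIA_06656 (log2 FC 2.15, SE 0.61) and ANIA_01338, a GPI-anchored serine-threonine rich protein (log2 FC 1.07, SE 0.30). ANIA_06656 had 55 reads in celAΔ and 9 in the control, 4.63-fold higher in celAΔ on pooled levels (95% exact interval 2.27 to 10.6). ANIA_01338 fell short of the threshold without celAΔ replicate 1 (log2 FC 0.98) or control replicate 2 (log2 FC 0.94), and its p adjusted over all loci was 0.0948 (edgeR). The endopolygalacturonase, which cuts pectin, thus went against the pectate lyase ANIA_03337, the only gene of the rule annotated for pectin. ANIA_01607, a sterol glucosyltransferase, had 110, 102 and 101 RPKM in celAΔ, against 7.02, 7.18 and 73.4 RPKM in the control, and did not pass (log2 FC 1.84, SE 0.92, edgeR, adjusted p = 0.0848). It passed without control replicate 3 (log2 FC 3.88, adjusted p = 1.5e-06), and with all libraries under DESeq2 and both limma fits, with adjusted p from 0.0134 to 0.0242. UDP-N-acetylglucosamine pyrophosphorylase, ANIA_09094, makes the sugar donor for chitin and had 78.0, 74.4 and 75.9 RPKM in celAΔ, against 149, 165 and 171 RPKM in the control (log2 FC -1.09, SE 0.28, or -0.41 and short of the threshold with the median listed gene as the scale).

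Gene order in assembly ASM1142v1 was then examined. Next to 11 of the 33 genes stood another listed gene, in 14 adjacent pairs, and 10 of these pairs (71.4%) had the same sign, beside 235 of the 292 adjacent listed pairs (80.5%) in the table. Both neighbours of the deleted locus, ANIA_08443 and ANIA_11083, were higher in celAΔ (log2 FC 8.72 and 6.78). The pairs of that locus were thus among those of unlike sign. The study names marker insertion as a possible reason for the rise of ANIA_08443, which was not tested here. The 4 neighbourhoods described next were chosen after their values were seen. ANIA_06470, the muramidase, stood beside ANIA_06471, an uncharacterised gene with 1, 0 and 0 reads in celAΔ and 68.7, 75.1 and 24.1 RPKM in the control. ANIA_06473, a little farther on the same side, had 2, 0 and 0 reads in celAΔ and 32.0, 35.0 and 18.9 RPKM in the control. Thus listed genes on one side of the muramidase shared its near absence from celAΔ. On the other side, past loci outside the table, ANIA_06469 was lower too (log2 FC -4.05). It had 0.619, 0.690 and 1.38 RPKM in celAΔ, against 14.9, 20.9 and 8.96 RPKM in the control. The lower levels were not limited to these genes. Other listed genes with nearby locus numbers were far lower too, among them ANIA_06478 (log2 FC -8.41), ANIA_06443 (log2 FC -11.1) and ANIA_06430 (log2 FC -7.89). ANIA_06487 was higher (log2 FC 2.05). Gene order was not examined beyond 3 positions from the muramidase, and the extent of the lowered stretch was not tested.

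The xylosidase ANIA_08477 was next to ANIA_08476, which had no read in celAΔ and 6.68, 6.14 and 6.87 RPKM in the control. The genes beyond it were also lower, ANIA_08475 with 0.819, 1.09 and 0.455 RPKM in celAΔ, against 39.2, 35.7 and 18.7 RPKM in the control. The β-glucosidase ANIA_07865 stood beside ANIA_07866, a putative alpha-glucoside transporter of the major facilitator superfamily, with 0.960, 0.489 and 1.98 RPKM in celAΔ, against 34.8, 33.1 and 23.8 RPKM in the control (log2 FC -4.75). The following gene, ANIA_07867, encodes a putative Zn(II)2Cys6 transcription factor and had a log2 FC of -3.05. A hydrolase, a sugar transporter and a regulator were therefore lower side by side. On the other side of the β-glucosidase, past loci outside the table, ANIA_07863 went the opposite way. It had 156, 111 and 126 RPKM in celAΔ, against 0.450, 1.35 and 35.0 RPKM in the control (log2 FC 3.42, edgeR, adjusted p = 0.0432).

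The opposite arrangement was seen at the arabinoxylan arabinofuranohydrolase ANIA_07908, which was lower among genes that were higher. Its neighbours ANIA_07907 and ANIA_07911 had log2 FCs of 2.00 and 2.74 and passed the test, ANIA_07911 not without celAΔ replicate 1 or control replicate 2. ANIA_07909, a polyketide synthase, had 43.4, 44.1 and 43.3 RPKM in celAΔ, against 0.0427, 0.0960 and 14.3 RPKM in the control, and did not pass (log2 FC 3.18, edgeR, adjusted p = 0.1), although it did without control replicate 3 (log2 FC 9.23) and under both limma fits. In ANIA_07909 as in ANIA_02541, control replicate 3 lay between the other control libraries and celAΔ.

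**Figure D5:**
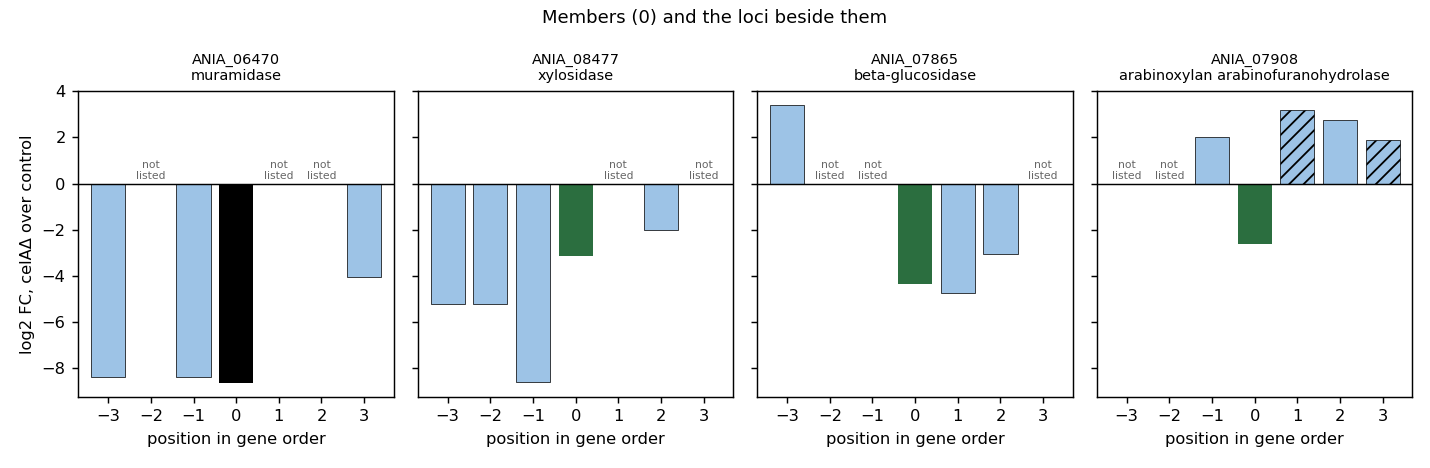
Log2 FC, celAΔ over control, of 4 genes (position 0) and of the listed genes up to 3 positions to either side in the gene order of the assembly. Hatched bars did not pass the test and empty positions hold genes outside the table; bars beside the muramidase, the xylosidase and the β-glucosidase point mostly down, and those beside the arabinoxylan arabinofuranohydrolase point up.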

How the data were processed

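Libraries were made from mRNA with a stranded kit and sequenced as paired-end reads. After trimming, the authors used CLC Genomics Workbench to map them to the A. nidulans FGSC A4 transcriptome, allowing up to 3 hits per read, and reads shared by near-identical genes are not in the unique counts. Whether strand was used in counting is not given in the sources used here. The deposited table holds, per gene and library, counts of reads unique to the gene and RPKM, both calculated by the authors, and the gene length in bases (deposited, unit: other). Its columns of strain means and p-value hold the authors' own comparison and were not used. The authors kept genes with p below 0.05 and an at least 2-fold difference.

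Mapped totals were derived from counts, length and RPKM; at least 98.7% of the genes agreed within 1 read. The study's supplementary mapping sheet has the totals of control replicate 2 and celAΔ replicate 2 under each other's names. The unique counts were fitted with edgeR 4.0.16 (quasi-likelihood, R 4.3.3; mapped totals as library sizes, prior count 0.125, no filter). Alternatives were TMM factors, scaling to the median gene, DESeq2 1.42.0, limma 3.58.1 on log2(RPKM + 1) and log2(RPKM + 0.1), a mean RPKM of at least 1, adjustment over all loci, a replicate block and each library left out. The fit was tested on simulated data with 200 changed genes. Exact intervals were given for strains with at most 10 reads of a gene. Gene order came from ASM1142v1, to which 1372 of 1375 genes, and all 33 described here, were matched by locus tag. The study calls the 3 cultures of a strain biological replicates, and those of celAΔ come from 1 transformant, so p-values measure the spread between these cultures. The genes, roles and related list were chosen with earlier results of these data known; each gene the annotation rule found is named, with per-library values for the largest and smallest log2 FCs, all higher genes, all fungal wall genes and those whose call changed with 1 library left out.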

Additional observations from a re-analysis of the deposited data

How the results depend on the processing

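No gene of the 33 reversed under any of the 14 alternatives, and 16 of the 33 kept both call and direction in all of them (25 with each library left out). The same counts were not made over all listed genes. Every listed gene had been selected for a difference of at least 2-fold in these libraries, so the counts do not set the 33 genes apart. The median log2 FC of -2.14 was -1.47 with libraries scaled to the median of the listed genes, -1.50 with DESeq2, -1.30 and -1.91 with limma at pseudocounts of 1 and 0.1, and -1.89 over the 29 genes with a mean RPKM of at least 1. With 32 genes called at first, 22 were called under median scaling and under DESeq2 (68.1% and 69.7% of all listed genes), 27 and 33 under the limma fits (89.8% and 98.1%), and 18 with adjustment over all loci, under which 524 in place of 1287 listed genes passed. The 10 genes lost under both median scaling and DESeq2 were ANIA_01477, ANIA_02017, ANIA_02824, ANIA_04390, ANIA_04947, ANIA_06405, ANIA_06620, ANIA_07191, ANIA_08484 and ANIA_11054. DESeq2 split the calls over all listed genes into 613 higher and 346 lower. Leaving out 1 library at a time gave 27 to 33 calls, where 992 to 1321 of the 1375 listed genes were called (72.1% to 96.1%), a median log2 FC from -2.39 to -1.79, and a difference in the share of mapped reads (celAΔ minus control) from -0.416 to -0.293 percentage points, against -0.340 with all libraries and -0.165 without ANIA_02928. Same-numbered libraries were not paired (correlations of their deviations 0.14, -0.14 and 0.08), and a replicate block left 29 genes called, where 1258 listed genes (91.5%) were called. Depth limits the genes with fewer than 10 reads in a strain, among them ANIA_09442, ANIA_02804, ANIA_10867, ANIA_07151 and ANIA_07908, whose folds have wide counting intervals or none.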
